A study of Homo sapiens with 6 samples.

Results

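The RAS-like GTPases and a set of other lipid-anchored signalling proteins were followed at the RNA level in A375, an established human melanoma cell line, with and without fluvastatin. The set held 33 of the 29790 genes in the table and was defined by name: RAS, RAL, RAP, RHEB and more divergent RAS-like GTPases, the gamma subunits of heterotrimeric G proteins and the PTP4A phosphatases. Each of the 33 symbols stood on a single line of the table. The libraries formed 2 groups of 3, untreated A375 cells grown alongside and A375 cells given 3 µM fluvastatin for 24 h, with the same medium and serum in both groups. All libraries came from this single cell line, and no label ties the triplicates to separately grown cultures. The p-values therefore reflect the scatter of 6 libraries, and that scatter may be technical. Both groups are named here by their labels, and replicates carry the numbers 0, 1 and 2.

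Fluvastatin is a statin, an inhibitor of HMG-CoA reductase in the mevalonate pathway. That pathway makes cholesterol and also the isoprenoids farnesyl and geranylgeranyl pyrophosphate, which prenyltransferases attach to a cysteine near the end of many signalling proteins. The modification holds RAS-like GTPases, G protein gamma subunits and PTP4A phosphatases at membranes, where they act. In a CAAX end the prenylated cysteine is followed by 3 further residues, and the last of them largely decides which lipid is used: leucine or phenylalanine marks a protein mainly for the enzyme that adds geranylgeranyl, other residues mainly for farnesyltransferase. RNA levels do not measure prenylation or protein amount.

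The coding ends of the members show which lipid each protein would be read to carry, and they were taken from the principal GENCODE release 29 transcript of each gene. The sequences below run from the CAAX cysteine codon to the stop codon, 5′ to 3′, with the cysteine codon and the last coding codon in capitals. RIT1, which lacks such a cysteine, is shown over the same stretch without capitals. They cover the 8 members that rose with the drug and 4 abundant members that did not pass the test.
RRAS: TGCgtcctcCTGtag
GNG2: TGTgccatcCTTtaa
RALA: TGCtgcattTTAtaa
RALB: TGTtgcttaCTAtga
RAP1A: TGTctgctgCTCtag
RAP1B: TGTcagctgCTTtaa
NRAS: TGTgtggtgATGtaa
RIT1: gattcagtaacttga
HRAS: TGTgtgctcTCCtga
RHEB: TGCtcggtgATGtga
GNG12: TGCatcatcTTAtag
PTP4A2: TGCtgtgttCAGtag
By these codons 14 members had a geranylgeranyl-type end, 15 a farnesyl-type end and 4 no CAAX cysteine. The last 4 were RIT1, RERG, RASL11A and RASL12, so the label "prenylated" does not follow from a CAAX end for them. Some printed genes have coding transcripts with other ends. The coding transcripts of HRAS, RALB, RAP1B and GNG2 had 2 different ends each, and those of PTP4A2 had 4. Values are given per gene, so RNA for such other ends is counted under the end of the principal transcript.

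Values are taken as FPKM, fragments scaled to transcript length and to the mapped fragments of the library, so levels can be set side by side between genes. Genes reaching 1 FPKM in 3 or more libraries were tested with limma on log2(FPKM + 1), and a gene is said to have risen or fallen at a Benjamini-Hochberg adjusted p below 0.05 over all genes tested. Depth, estimated from the steps between low values relative to 1 for control replicate 0, was 0.966 to 1.18 in the other controls and 1.27 to 1.51 in the fluvastatin libraries. Each fluvastatin library was thus deeper than each control, and depth and treatment cannot be told apart. A fit with depth as a covariate left 49 genes higher and 12 lower of 14344, and none of the members. The melanoma lineage gene SOX10 was at 20.1 to 26.1 FPKM in controls and 67.1 to 75.4 FPKM after fluvastatin, and MITF was at 6.10 to 7.77 FPKM over all libraries, whereas the pigment genes PMEL, TYRP1 and DCT stayed below 1 FPKM in each library. NGFR was at 14.51 to 18.53 FPKM in controls and 23.65 to 27.03 FPKM after fluvastatin, and AXL at 304.7 to 342.9 FPKM over all libraries. S100B and S100A1 reached at most 0.5995 and 1.241 FPKM. Of the 11 lineage and neural crest markers 9 had a row, with none for MLANA and TYR. Of the other cell types' markers, 0 of 3 immune genes had a row and the 3 endothelial genes summed to at most 0.188 FPKM. The summed epithelial markers were at 0.871 to 1.09 FPKM in controls and 4.34 to 6.25 FPKM after fluvastatin, mostly from KRT14, with CDH1 listed at 0 in 5 of the 6 libraries. The summed fibroblast markers, mostly PDGFRB, went from a range of 7.14 to 11.5 to a range of 5.53 to 6.47 FPKM. The part of these markers in the results below was not tested.

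Of the 33 members, 24 passed the filter on low values. Of these, 8 rose, 0 fell and 16 did not pass. Over all 14344 genes tested, 14.1% rose and 13.6% fell, against 33.3% of the tested members that rose. The members were chosen with earlier results of these data known, so this contrast is a description only. The median log2 fold change of the 24 was 0.26, beside -0.01 over all genes tested. In 11 of the 24 all 3 fluvastatin libraries lay above all 3 controls and in 0 below them, where the shares over all genes were 21.9% and 22.9%. The members that rose were RRAS, GNG2, RALA, RALB, RAP1A, RIT1, RAP1B and NRAS. The rises of RRAS and GNG2 were the largest, and the other 6 lay between 1.26-fold and 1.52-fold.

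**Figure D1:**
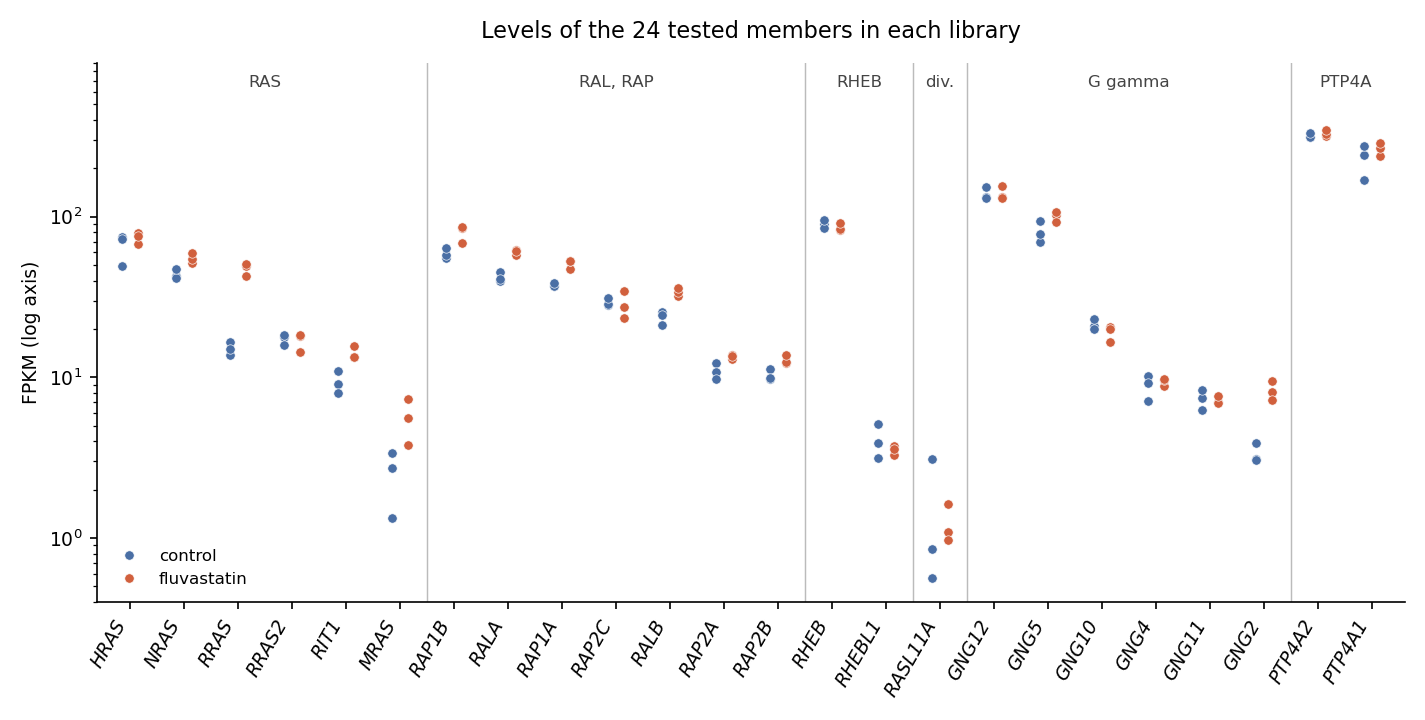
FPKM on a log axis (y) of the 24 tested members (x), grouped by family, with 1 point per library in blue for the 3 controls and in orange for the 3 fluvastatin libraries ("div." marks the divergent RAS-like GTPases). The orange points of RRAS and GNG2 sit clear of the blue ones, whereas those of GNG12 and PTP4A2 overlap the blue ones.

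RRAS encodes R-Ras, a RAS relative known for promoting integrin-mediated adhesion. In the order of replicates 0, 1 and 2, used for all values here, the controls had 13.7, 16.7 and 15.0 FPKM and the fluvastatin libraries 49.2, 50.9 and 42.8 FPKM. The lowest treated library stood well above the highest control. The group means were 15.1 ± 1.49 (SD, n = 3) and 47.6 ± 4.29 FPKM (SD, n = 3), a 3.15-fold rise with a log2 fold change of 1.60 ± 0.11 (SE; adjusted p = 4.07e-04, limma). RRAS (ENSG00000126458.3) spans positions 49635292 to 49640201 of chromosome 19, minus strand, GRCh38. With depth as a covariate its log2 fold change was 1.40 (adjusted p = 0.0772), and every other alternative kept the call, at adjusted p of 3.61e-05 to 0.00619.

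The closest relatives of RRAS are RRAS2 and MRAS, and neither passed the test. RRAS2, also called TC21, was at 17.9, 15.8 and 18.3 FPKM in controls and at 18.0, 14.4 and 18.4 FPKM after fluvastatin, with overlapping groups (adjusted p = 0.850). The 95% interval of its log2 fold change ran from -0.33 to 0.25, below that of RRAS, which ran from 1.33 to 1.86. The difference between these genes was not itself tested. MRAS, which forms a phosphatase complex with SHOC2 that activates RAF kinases, was at 3.36, 1.34 and 2.74 FPKM in controls and at 3.79, 7.36 and 5.61 FPKM after the drug. Its libraries did not overlap and its mean was 2.25-fold higher, but the controls varied widely and the adjusted p was 0.0531, just above the threshold. It was below the threshold without control replicate 0 or fluvastatin replicate 0, at 0.0459 and 0.0464, with trimmed-mean scaling (0.0488) and with trend and robust on (0.0329), over a range of 0.0329 to 0.387. In the controls RRAS made up 39.2%, 49.3% and 41.5% of the summed FPKM of RRAS, RRAS2 and MRAS, and after fluvastatin 69.3%, 70.0% and 64.1%. RRAS and RRAS2 thus stood at similar levels in the controls (15.1 ± 1.49 and 17.3 ± 1.35 FPKM), and RRAS was the higher in each treated library.

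Of the classical RAS genes NRAS rose and HRAS did not pass. NRAS, a GTPase that relays growth factor receptor signals to RAF kinases, was at 42.8, 41.4 and 47.1 FPKM in controls and at 51.4, 54.3 and 59.7 FPKM after fluvastatin. The groups did not overlap, and the rise of 1.26-fold lay just inside the threshold (log2 fold change 0.33 ± 0.10 SE; adjusted p = 0.0498). The call was kept in 5 of 14 alternatives, with adjusted p from 0.0249 to 0.390 over them. Leaving out control replicate 0 (0.117) or 1 (0.138) or a fluvastatin replicate (0.0742, 0.105 and 0.137 for 0, 1 and 2) ended it. HRAS, which has the same role, was at 74.5, 72.5 and 49.0 FPKM in controls and at 67.5, 79.4 and 75.8 FPKM after the drug. Its groups overlapped, with control replicate 2 far below the rest, and the 95% interval of the log2 fold change ran from -0.21 to 0.62 (adjusted p = 0.433). RIT1, a RAS relative without a lipid anchor that binds membranes through charged residues, was at 10.9, 9.06 and 8.02 FPKM in controls and at 13.4, 15.7 and 13.3 FPKM after fluvastatin. All treated libraries were higher, the rise was 1.52-fold, and the adjusted p was 0.0217. The RIT1 call ended without control replicate 1 (0.0621) or fluvastatin replicate 0 (0.0532) or 1 (0.0667), within a range of 0.0128 to 0.463 over its alternatives.

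**Figure D2:**
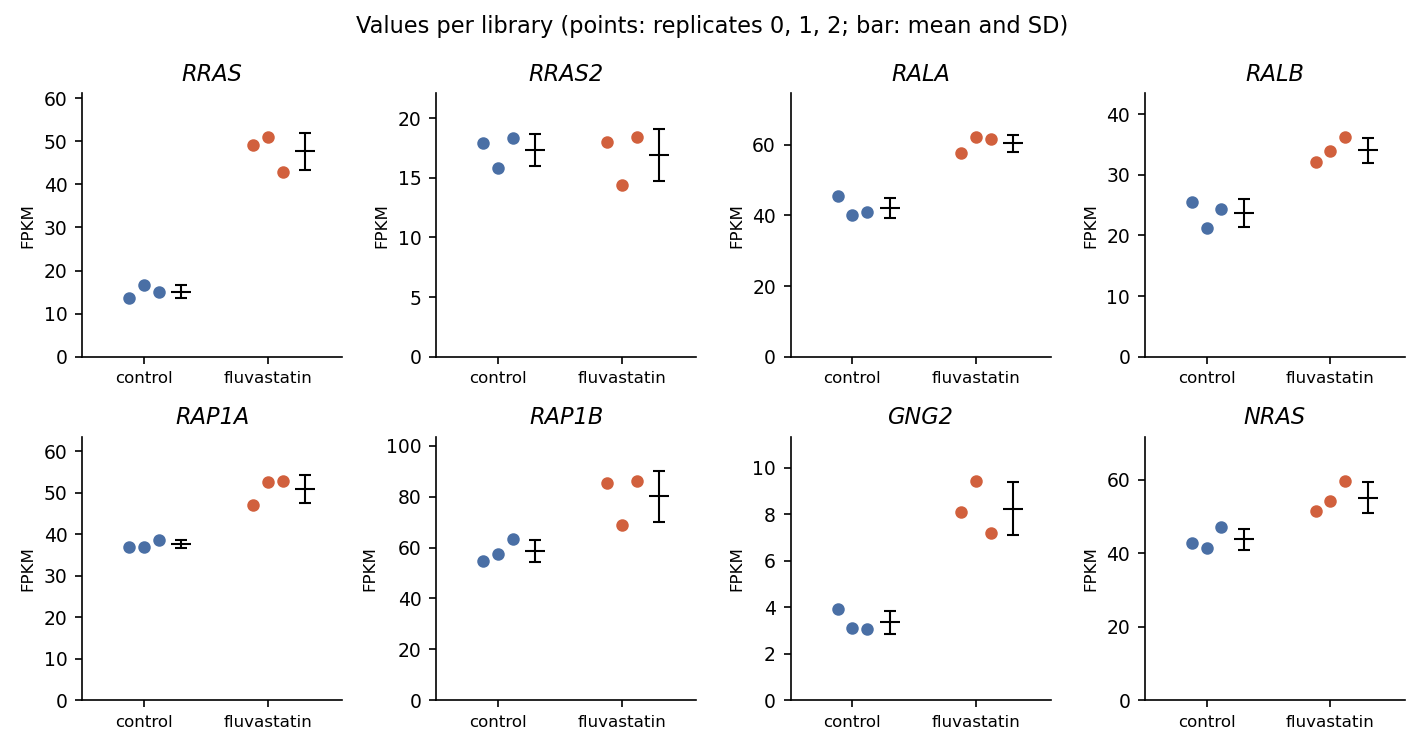
FPKM (y) per library for RRAS, RRAS2, RALA, RALB, RAP1A, RAP1B, GNG2 and NRAS, with the control libraries in blue and the fluvastatin libraries in orange; the bar is the mean with its SD (n = 3). In each panel but that of RRAS2 the treated points lie above the control points.

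The RAL and RAP genes rose in 4 of 7 cases and 3 did not pass, where 14.1% of all genes tested rose. Their median log2 fold change was 0.42, beside -0.01 over all genes tested. RALA and RALB are GTPases that recruit the exocyst, the complex that tethers secretory vesicles at the plasma membrane. RALA was at 45.4, 40.0 and 41.0 FPKM in controls and at 57.6, 62.1 and 61.5 FPKM after fluvastatin, a 1.43-fold rise (log2 fold change 0.51 ± 0.09 SE; adjusted p = 0.00877). RALB was at 25.6, 21.2 and 24.4 FPKM and then at 32.1, 33.9 and 36.2 FPKM, a 1.44-fold rise (log2 fold change 0.51 ± 0.10 SE; adjusted p = 0.0142). In both genes every treated library was above every control, and the calls held without each library in turn. The share of RALA in their summed FPKM was 64.0% ± 1.31 in controls and 64.0% ± 0.890 after the drug (SD, n = 3), so that the balance of the pair differed by less than the spread between libraries.

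RAP1A and RAP1B encode the RAP1 proteins, which control integrin activation and cell junctions. RAP1A was at 37.0, 37.0 and 38.7 FPKM in controls and at 47.0, 52.6 and 52.9 FPKM after fluvastatin, 1.35-fold higher (adjusted p = 0.0151). RAP1B was at 54.9, 57.7 and 63.4 FPKM and then at 85.5, 68.7 and 86.3 FPKM, 1.37-fold higher (adjusted p = 0.0376). Neither gene's groups overlapped, although fluvastatin replicate 1 of RAP1B stood closer to the controls than the other treated libraries. The RAP1A call ended without fluvastatin replicate 1 (0.0513) or 2 (0.0516), within a range of 0.00550 to 0.381 over its alternatives. The RAP1B call ended when control replicate 0 (0.0976) or 1 (0.0944), or fluvastatin replicate 0 (0.114) or 2 (0.109), was left out, within a range of 0.0157 to 0.216. RAP1B made up 60.9% ± 1.19 of the pair's FPKM in controls and 61.0% ± 4.05 after the drug.

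The RAP2 genes, whose products act on kinases such as TNIK and MAP4K4, did not pass. RAP2A was at 12.2, 10.8 and 9.81 FPKM in controls and at 13.0, 13.8 and 13.7 FPKM after fluvastatin (adjusted p = 0.0806). RAP2B was at 11.2, 9.83 and 9.95 FPKM and then at 12.2, 12.5 and 13.8 FPKM (adjusted p = 0.0639). In both the treated libraries lay above the controls, by 1.23-fold and 1.24-fold in the means. RAP2B passed under a minimum mean of 5 FPKM (adjusted p = 0.0432), in a range of 0.0432 to 0.449 over its alternatives. RAP2C was at 28.2, 28.4 and 31.3 FPKM and then at 23.3, 34.7 and 27.5 FPKM, with overlapping groups and an adjusted p of 0.818. RHEB, the GTPase that switches on the growth kinase complex mTORC1 at lysosomes, was at 90.0, 85.1 and 95.0 FPKM in controls and at 82.7, 83.7 and 90.9 FPKM after fluvastatin. These ranges overlapped and the 95% interval of the log2 fold change was narrow, from -0.28 to 0.14 (adjusted p = 0.606). Its close relative RHEBL1 ran from 3.17 to 5.14 FPKM in controls and from 3.28 to 3.74 FPKM after the drug (adjusted p = 0.525).

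The promoters of RALA and RALB are printed because this pair rose by nearly the same factor. Each is the single RefSeq window given for the gene, from 250 bases before to 50 bases after a RefSeq start (GRCh38.p14, plus strand), RALA at chr7:39623322-39623621 and RALB at chr2:120252602-120252901, with GC boxes (GGGCGG or CCGCCC on the other strand) in capitals.
RALA: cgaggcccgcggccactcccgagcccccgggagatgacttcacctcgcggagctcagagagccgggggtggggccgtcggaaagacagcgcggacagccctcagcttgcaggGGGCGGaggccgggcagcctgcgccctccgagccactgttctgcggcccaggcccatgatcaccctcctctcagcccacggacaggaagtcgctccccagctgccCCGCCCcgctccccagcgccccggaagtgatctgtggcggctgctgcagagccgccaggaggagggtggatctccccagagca
RALB: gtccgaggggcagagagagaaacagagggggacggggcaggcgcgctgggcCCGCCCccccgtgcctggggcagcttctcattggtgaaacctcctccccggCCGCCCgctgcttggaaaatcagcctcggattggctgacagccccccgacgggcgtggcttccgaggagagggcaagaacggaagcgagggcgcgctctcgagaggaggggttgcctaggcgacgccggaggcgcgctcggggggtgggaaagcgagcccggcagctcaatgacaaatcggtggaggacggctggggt
Each window held 2 GC boxes, a motif bound by SP and Krüppel-like factors that 45.0% of all 35116 RefSeq windows contain. Neither held an E box (CACGTG), an AP-1 site (TGANTCA), a CRE (TGACGTCA), a TEAD site (GGAATG) or a sterol element (TCACNCCAC) on either strand, motifs found in 7.26%, 7.71%, 1.85%, 14.0% and 1.13% of all windows. No window was given for RRAS. Of the 33 members, 28 had at least 1 window. In GENCODE the RALB gene begins further upstream, at position 120240064 of chromosome 2, so that its window lies inside the annotated gene. RAP1A and RAP1B, a pair that also rose by similar factors (1.35-fold and 1.37-fold), had unlike windows, which are not printed. The RAP1A window held 0 GC boxes and 2 TEAD sites, and the RAP1B window 6 GC boxes, 1 CRE and 0 TEAD sites. These are matches of letters only.

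G protein gamma subunits pair with a beta subunit, and the prenyl group of gamma anchors the dimer. Of 6 tested, 1 rose and 5 did not pass, a count near the 14.1% of all genes tested that rose. GNG2 was at 3.93, 3.09 and 3.05 FPKM in controls and at 8.09, 9.43 and 7.20 FPKM after fluvastatin, without overlap. The means were 3.36 ± 0.496 and 8.24 ± 1.12 FPKM (SD, n = 3), a 2.45-fold rise (log2 fold change 1.08 ± 0.13 SE; adjusted p = 0.00234). The call held without each library in turn, and with depth as a covariate the log2 fold change was 1.05 (adjusted p = 0.150). GNG2 (ENSG00000186469.8) spans positions 51826195 to 51979342 of chromosome 14, plus strand, GRCh38, and the antisense gene AL358333.3, not analysed here, shares 7.51% of its exon bases.

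The more abundant gamma genes had other patterns. GNG12 was at 133.3, 131.3 and 153.6 FPKM in controls and at 131.9, 131.0 and 155.1 FPKM after fluvastatin, nearly the same means, with the 95% interval of the log2 fold change from -0.27 to 0.27 (adjusted p = 0.994). GNG5 was at 69.2, 78.0 and 94.1 FPKM and then at 103.0, 92.2 and 106.3 FPKM, with overlap because control replicate 2 was higher than fluvastatin replicate 1. Its adjusted p was 0.115, and it was 0.0389 without control replicate 2, in a range of 0.0389 to 0.369 over its alternatives. GNG10, GNG4 and GNG11 lay between 6.28 and 22.9 FPKM in all libraries, with overlapping groups and adjusted p of 0.361, 0.649 and 0.892. In controls GNG2 stood below GNG11 (7.38 ± 1.05 FPKM) and GNG4 (8.83 ± 1.58 FPKM). After the drug it was at 8.24 ± 1.12 FPKM, beside 9.40 ± 0.478 FPKM for GNG4 and 7.20 ± 0.434 FPKM for GNG11. GNG2 nevertheless made up only 1.30% ± 0.294 of the summed FPKM of the 7 gamma members in controls and 2.93% ± 0.571 after fluvastatin. GNG12 made up 53.5% ± 1.34 and 49.0% ± 1.47. Gamma genes outside the member list, such as GNGT2 below, are not in these sums. Most exon bases of GNG10 (73.1%) are shared with the readthrough gene DNAJC25-GNG10, so its reads may be divided between the entries. GNG5 shares 30.9% of its exon bases with AL359762.3 on the same strand, a gene not analysed here. It shares 10.7% with SPATA1 on the opposite strand, which reached at most 0.745 FPKM.

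PTP4A phosphatases, also known as PRL proteins, are prenylated tyrosine phosphatases that bind CNNM magnesium transporters. PTP4A2 was the most abundant member, at 314.8, 313.8 and 331.5 FPKM in controls and 319.6, 327.4 and 346.4 FPKM after fluvastatin. PTP4A1 was at 242.3, 274.3 and 169.2 FPKM and then at 239.6, 267.0 and 285.8 FPKM. In both genes the groups overlapped (adjusted p = 0.699 and 0.401). The interval for PTP4A2 was narrow, from -0.15 to 0.24 on the log2 scale, whereas that of PTP4A1 ran from -0.21 to 0.68, with control replicate 2 far below the other libraries. The 2 genes held 43.1% ± 2.86 of the summed FPKM of the 33 members in controls and 40.6% ± 0.522 after the drug. An overlapping coding gene, AL135905.2, shares 79.0% of the exon bases of PTP4A1 and was not analysed here. Pseudogenes named after a member had 10 rows in the table, the highest at 1.69 FPKM.

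The divergent RAS-like GTPases were barely detected. Of 8, 7 failed the filter, as did GNG7 and PTP4A3, and these 9 members stayed at or below 0.433 FPKM in every library. Of the 9, 6 were listed at 0 in at least 1 library, and an exact 0 in such a table can be a failed estimate. RASD1, a GTPase known as a dexamethasone-induced gene, was listed at 0.106, 0.0376 and 0 FPKM in controls and at 0.268, 0.229 and 0.186 FPKM after fluvastatin, the single gene of these 9 without overlap. The share of all genes under the filter without overlap was not counted, so this is a description only. DIRAS1 and DIRAS3, which antagonise RAS growth signals, reached at most 0.222 and 0.179 FPKM. RERG, RASL12, RASD2, RASL10A, GNG7 and PTP4A3 had overlapping groups. RASL11A, the only tested gene of this family, was at 3.12, 0.561 and 0.852 FPKM in controls and at 1.09, 1.62 and 0.979 FPKM after the drug, with control replicate 0 far above the others (adjusted p = 0.937).

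Grouped by coding end, 6 of the 13 tested members with a geranylgeranyl-type end rose, 1 of 9 with a farnesyl-type end and 1 of 2 without a CAAX cysteine, where 14.1% of all genes tested rose. The count of the farnesyl-type members is near that share. The risen genes of the first group were RRAS, GNG2, RALA, RALB, RAP1A and RAP1B, and all of them end on a leucine codon. So do MRAS, RAP2B, GNG4, GNG5, GNG10 and GNG12, which did not pass, and RRAS2 alone of the tested group ends on phenylalanine. The median log2 fold change was 0.42, 0.05 and 0.26 in the 3 groups. Within the first group GNG12 and RRAS2 had values near 0, and GNG10 was at -0.15. The groups hold paralogs with related sequences and the difference between them was not tested. The summed FPKM of the geranylgeranyl-type members was 443.5, 442.1 and 496.4 in controls and 573.8, 565.5 and 615.9 after fluvastatin, without overlap. That of the farnesyl-type members was 818.1, 836.3 and 745.8 and then 808.6, 872.3 and 911.8, with overlap and with most of the sum from the PTP4A genes.

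**Figure D3:**
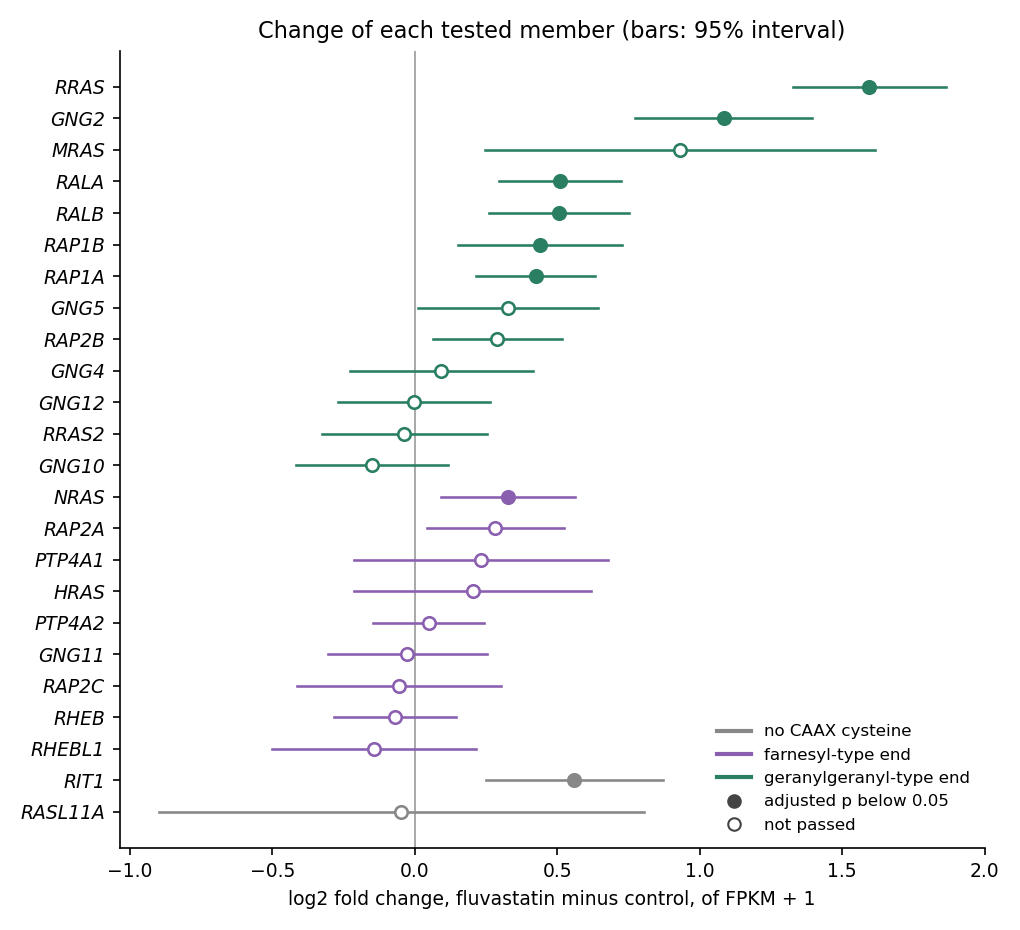
Log2 fold change (x, fluvastatin minus control, of FPKM + 1) of the 24 tested members with its 95% interval, coloured by the type of coding end; filled points passed the adjusted threshold. The 6 filled green points are RRAS, GNG2, RALA, RALB, RAP1B and RAP1A, and the only filled purple point is NRAS.

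How firmly each rise stood was read from 14 alternative settings. RRAS, GNG2, RALA and RALB kept their calls in each of the 13 settings without a depth term. RAP1A kept it in 11, RIT1 in 10, RAP1B in 7 and NRAS in 5 of these 13. With the depth covariate none of the 8 passed, and their log2 fold changes were 1.40 for RRAS, 1.05 for GNG2, 0.68 for RAP1B, 0.65 for RALB, 0.52 for RALA, 0.42 for RIT1, 0.39 for NRAS and 0.35 for RAP1A. The sign of these 8 was positive in every setting. The count of risen members was 5 without control replicate 1, fluvastatin replicate 1 or fluvastatin replicate 2.

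**Figure D4:**
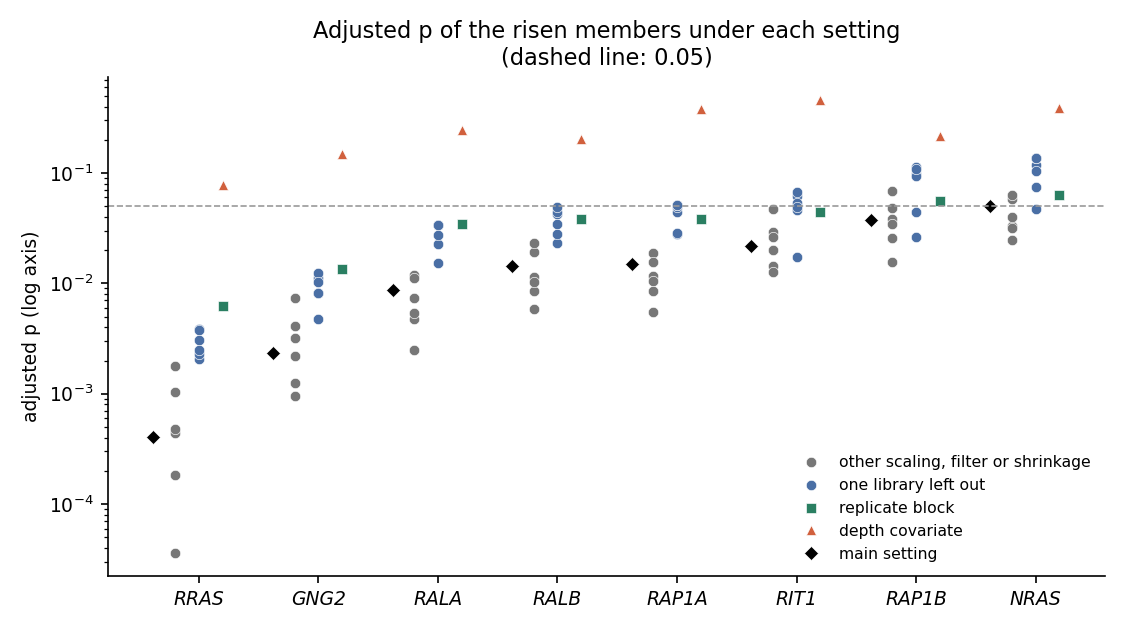
Adjusted p (y, log axis) of the 8 risen members in the main setting and in each alternative, with the threshold of 0.05 as a dashed line. The triangles of the depth covariate lie above the line for all 8, and for RRAS, GNG2, RALA and RALB the other symbols lie below it.

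Genes that act on or with these proteins were counted in lists of textbook genes, chosen with earlier results of these data known. In these lists 23 of 92 tested rose and 2 fell. That is 25.0% rising, beside 14.1% rising and 13.6% falling over all genes tested, the shares against which each list below is to be read. The median log2 fold change was 0.12, beside -0.01 over all genes tested. Of those 25 genes, 12 kept their calls without each library in turn, and none passed with the depth covariate. Nucleotide exchange factors, which load GTP on RAS, RAP and RAL, rose in 5 of 13 cases and fell in 0. RALGDS, a RAL activator that RAS itself binds, was at 10.2, 10.5 and 8.90 FPKM in controls and at 26.6, 24.3 and 20.5 FPKM after fluvastatin, 2.41-fold higher (adjusted p = 0.00152). RALGPS2, another RAL activator, rose 2.12-fold, and SOS2, a RAS activator recruited to growth factor receptors, rose 1.66-fold. RAPGEF1, a RAP1 activator, rose 1.32-fold, a call lost without fluvastatin replicate 0 (0.0587) or 1 (0.0511). An overlapping gene on the same strand, AL162417.1, shares 39.9% of the exon bases of RALGDS.

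GTPase activating proteins, which switch the same GTPases off, rose in 4 of 17 cases and fell in 0, where 14.1% of all genes tested rose. RASAL2, a RAS GAP, rose 1.40-fold (adjusted p = 0.0134), a call lost without fluvastatin replicate 0 (0.0515). RALGAPB, a subunit of the RAL GAP complex, rose 1.24-fold and TSC2, the GAP of RHEB, 1.23-fold, and both calls were lost without any single library, at 0.0618 to 0.108 and 0.0684 to 0.117. RALGAPA2, another RAL GAP subunit, rose 1.58-fold and lost its call without any library but fluvastatin replicate 1 (up to 0.107). Among effectors and adaptors 4 of 16 rose and 1 fell. The RAS-association domain genes RASSF3 and RASSF1 rose 1.46-fold and 1.50-fold (adjusted p = 0.00817 and 0.0139), and RASSF8 fell 1.25-fold, from 140.6 ± 7.13 to 112.6 ± 1.45 FPKM (adjusted p = 0.0308). The RASSF8 call was lost without any library but control replicate 2, at up to 0.0944. TIAM1, an exchange factor for RAC that binds RAS, rose 1.29-fold and lost its call without any library but fluvastatin replicate 2, at up to 0.125.

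The enzymes that prenylate and process CAAX ends did not pass. ICMT, which methylates the prenylated cysteine, was at 47.8 ± 2.51 and 41.9 ± 1.51 FPKM (adjusted p = 0.155), and the shared transferase subunit FNTA was at 23.5 ± 2.78 and 25.7 ± 2.44 FPKM (adjusted p = 0.466). FNTB shares 42.1% of its exon bases with the same-strand gene CHURC1-FNTB, at 10.6 to 18.2 FPKM. RCE1 shares 12.7% with the same-strand gene C11orf80, at 10.5 to 14.8 FPKM in controls and 18.4 to 20.8 FPKM after fluvastatin. Reads of FNTB and RCE1 may therefore be divided between the entries. In the same list 4 of 14 rose and 0 fell, all of them carriers or binding proteins. The galectins LGALS1 and LGALS3, which bind membrane RAS, rose 1.94-fold and 2.32-fold. LGALS1 went from 905.2 ± 56.3 to 1752 ± 152 FPKM (adjusted p = 0.00162). RABAC1 and ARL6IP5, PRA1-family proteins that bind prenylated GTPases, rose 2.18-fold and 2.11-fold. These 4 calls held without each library in turn. RABAC1 shares 18.4% of its exon bases with AC010616.2, an overlapping gene on the same strand that was not analysed here.

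In the palmitoylation cycle, which adds and removes a further lipid on HRAS and NRAS, 2 of 11 rose and 1 fell. ABHD17C, a depalmitoylase, fell 1.53-fold from 17.3 ± 0.995 to 11.3 ± 0.518 FPKM (adjusted p = 0.00550). The acyltransferases ZDHHC3 and ZDHHC9 rose 1.26-fold and 1.28-fold, and both calls were lost without any single library, at up to 0.0912 and 0.113. Of 13 tested G protein beta and alpha partners 3 rose and 0 fell. GNAI2, an inhibitory alpha subunit, rose 1.50-fold, from 142.8 ± 9.14 to 213.7 ± 7.15 FPKM (adjusted p = 0.00546). GNAI3, another inhibitory alpha subunit, rose 1.35-fold, a call that ended when control replicate 0 (0.0617) or 1 (0.0671), or fluvastatin replicate 0 (0.0613) or 2 (0.0672), was left out. GNA13, another alpha subunit, rose 1.23-fold and lost its call without any single library, at 0.0787 to 0.122. Of 5 tested family genes outside the 33, GNGT2 rose. This gamma subunit, named for cone photoreceptors, was at 4.88, 5.18 and 5.27 FPKM in controls and at 13.7, 16.1 and 16.0 FPKM after the drug, 2.99-fold higher (adjusted p = 3.93e-04). GNGT2 shares 131 exon bases (7.76% of its own) with ABI3 on the opposite strand, whose FPKM was 4.37 to 5.25 in controls and 6.84 to 7.88 after fluvastatin, and without a stated strand setting reads from that stretch cannot be told apart. Of the 3 tested PTP4A partners of the CNNM family, 0 passed, and the highest, CNNM3, was at 9.08 ± 1.79 and 6.77 ± 1.72 FPKM (adjusted p = 0.217).

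**Figure D5:**
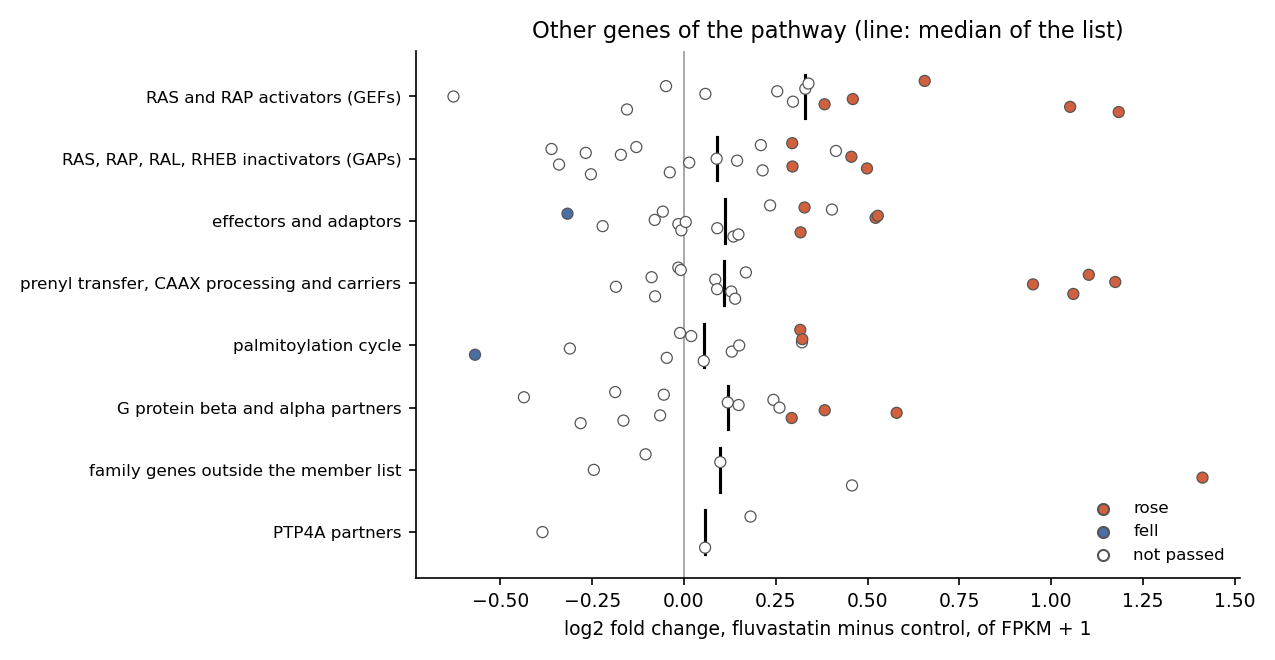
Log2 fold change (x, fluvastatin minus control, of FPKM + 1) of the 92 tested pathway genes, 1 point per gene and 1 row per list, in orange where the gene rose, in blue where it fell and open where it did not pass; the black line is the median of the list. The 4 orange points of the prenylation row are LGALS1, LGALS3, RABAC1 and ARL6IP5, and the blue points are RASSF8 and ABHD17C.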

How the data were processed

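RNA was measured in 6 A375 libraries. In the deposited table each gene has 1 value for each library, which the authors made with STAR, Cufflinks and Cuffdiff on hg38, per the submitters' processing notes. The header names no unit, and the deposited values were taken as FPKM, as those tools give. Tool versions, annotation release, strand setting and rescaling are not given in the sources used here. Positions and coding ends came from GENCODE release 29 on GRCh38, where 30 of the 33 versioned identifiers matched exactly and the others without the version, and promoters from RefSeq (GRCh38.p14).

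A linear model (limma 3.58.1, R 4.3.3, default eBayes settings, two-sided, without a block) was fitted on log2(FPKM + 1) over the 14344 genes that reached 1 FPKM in 3 or more libraries, with Benjamini-Hochberg adjustment. Means, SDs and folds are in FPKM, whereas log2 fold changes include the pseudocount and understate changes of low genes. On simulated data, where only a small part of the genes was changed, all of them well expressed, the script recovered 82% of changes of log2 1. Of changes of log2 0.5 it recovered 40%, so a small change can fail to pass. There 170 of 14344 genes were called, against 3971 in the real data, so the adjustment was stricter in the simulation. The recovered shares therefore do not give the power of the test on the real data. FPKM carry no counts, so depth is known only as a ratio between libraries, from the mode of log ratios of low values. The alternatives changed the pseudocount, filter, scaling (trimmed mean of M-values or quantiles), variance settings, block, a depth term or left out 1 library. Members and lists were chosen with earlier results of these data known. Each member is named, and of each pathway list up to 4 called genes with the smallest adjusted p, or, where 0 passed, the gene with the highest mean. ICMT and FNTA were named outside that rule, after their values were seen.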

Additional observations from a re-analysis of the deposited data

How the results depend on the processing

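With 1 library left out, the number of risen members ran from 5 to 9, of risen genes from 1173 to 1842, of fallen genes from 1104 to 1641, of risen pathway genes from 11 to 16 and of fallen ones from 1 to 3. No setting gave a fallen member (0 in each). With the depth covariate 0 members and 0 pathway genes rose, 0 pathway genes fell, and over all genes 49 rose and 12 fell; the cause was not tested. Fallen pathway genes numbered 4, against 2, under a minimum mean of 5 FPKM, under quantile normalization and with trend and robust on; the cause was not tested.

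The replicate block left 6 risen members, 1658 risen and 1496 fallen genes and 14 risen pathway genes against 23, and NRAS (adjusted p = 0.0627, limma) and RAP1B (adjusted p = 0.0559, limma) were no longer called. Deviations of same-numbered libraries correlated at -0.002, 0.085 and 0.084 and those of other pairs at -0.136 to 0.058. Of the 6 libraries 4 correlated best with their own number, a hint from the data only, and the numbers were not taken to pair the samples.

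Among 330 member values under alternatives, 274 kept sign and call, 27 lost a call, 6 gained one and 23 changed sign. The sign changes lay in 10 members that had not passed, at adjusted p of 0.455 or more (limma). With the depth covariate the log2 fold change was -0.26 for HRAS, 0.32 for RRAS2, 0.033 for RHEB, 0.083 for RHEBL1, 0.37 for RASL11A, -0.20 for GNG4, 0.27 for GNG11, 0.13 for GNG12 and -0.35 for PTP4A1. With 1 library left out it ran from -0.098 to 0.069 for RRAS2, -0.20 to 0.076 for RAP2C, -0.27 to 0.0052 for RHEBL1, -0.32 to 0.034 for RASL11A, -0.042 to 0.19 for GNG4, -0.12 to 0.059 for GNG11 and -0.081 to 0.070 for GNG12. It was 0.040 for RASL11A at a pseudocount of 0.1, and 0.0074 and 0.011 for GNG12 with trimmed-mean scaling and quantile normalization. The causes were not tested.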
